A study of Mus musculus with 13 samples.

Results

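The collagen genes that do not encode type IV chains were examined by their chromatin accessibility in nuclei of mouse kidney. The group holds 38 genes of the 35325 protein-coding and long non-coding genes of the annotation, taken by gene family and not by any measured value. Each gene was given the peaks that overlap its body or the 2 kb upstream of it (mm10, GENCODE). By that rule 37 of the 38 genes held at least 1 peak, against 27987 of all genes, and together they held 774 of the 300755 peaks. Col10a1, the collagen of hypertrophic cartilage, held none and has no values here.

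Single nuclei ATAC-seq (snATAC-seq), in which a transposase cuts and tags the DNA that is open in each nucleus, was performed on whole kidneys. There were 2 samples at P0 (the protocol in the labels names 1-day-old mice), 1 sample at P21 (3 weeks) and 2 samples at P56 (8 weeks). The P21 and P56 samples are together called adult. No genotype, strain or treatment is given for these samples in the sources used here, and the labels do not say whether each sample is a separate animal, so that p-values measure the spread between these samples only. The older mice were perfused with saline and the newborn mice were not, so that age and preparation cannot be told apart. Nuclei were compared within 13 clusters, under the published cluster names. Of the nephron and collecting duct these were NP (progenitors), Podo (podocytes), PCT and PST (proximal tubule, its convoluted and its straight stretch), LOH (Henle's loop), DCT and CNT (distal convoluted and connecting segments), and PC and IC (the principal and intercalated cells of the collecting duct). The others were Endo (endothelium), an immune cluster, stroma 1 and stroma 2.

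The 5 libraries held 3361 to 7129 nuclei and 16980853 to 43794155 open calls, an open call being 1 nucleus with a fragment in 1 peak. Depth moved with age in the clusters of most interest. The median nucleus of stroma 2 had 6930 and 7624 open peaks at P0, but 3465 at P21 and 3384 and 3311 at P56. Stroma 2 had 1309 and 1145 nuclei at P0 against 206, 535 and 344 in the adult samples, and stroma 1 had 690 and 491 against 90, 107 and 101. Of 27834 distinct barcodes, 477 occurred in more than 1 library. All levels below are CPM, open calls per 1000000 of all open calls in the same cluster and sample. A difference in level cannot tell a change in the share of nuclei that are open from a change in which nuclei fall in the cluster.

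Collagens are trimers of chains with glycine at each turn of a triple helix, and they form the scaffold of the matrix between cells. Types I, III and V make the fibrils of the kidney interstitium and are known for their deposition in fibrosis. Type VI forms beaded filaments, and the fibril-associated collagens (FACIT), such as types XII and XIV, sit on fibril surfaces. Types XIII, XVII, XXIII and XXV span the plasma membrane, while types XV and XVIII lie in or near basement membranes, where a fragment of type XVIII is the angiogenesis inhibitor endostatin. In kidney, fibroblasts, pericytes and other stromal cells are the textbook source of fibrillar collagen. Chromatin accessibility is not expression, and no RNA level is given here.

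The windows below are shown because peaks compared in stroma 2 hold them, while each gene's level is a sum over all its peaks. The windows of Col15a1, Col25a1, Col11a1, Col6a6, Col23a1 and Col5a1 lie in peaks with the smallest adjusted p-values, and that of Col24a1 lies at the start of a gene described below. All sequences are from GRCm38.p6 (mm10) and run 5′ to 3′ on the strand of the gene. Capitals mark matches to the motifs searched on both strands. These were TGANTCA for AP-1, GGAATG for TEAD, GGGCGG as the GC box, TATAAA as the TATA box, CAGCTG as an E-box, and CCAAT as the box of that name. Except at the start sites, each window is the central 300 bases of the peak.
Col15a1, intron, chr4:47237326-47237625, plus strand, more open in adult: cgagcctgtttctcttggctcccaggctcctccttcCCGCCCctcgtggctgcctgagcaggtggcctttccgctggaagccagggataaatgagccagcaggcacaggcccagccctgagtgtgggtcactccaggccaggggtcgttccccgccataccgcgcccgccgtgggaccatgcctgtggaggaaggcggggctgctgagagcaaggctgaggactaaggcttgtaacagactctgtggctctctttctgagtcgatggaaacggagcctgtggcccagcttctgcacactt
Col25a1, intron, chr3:130260494-130260793, plus strand, more open at P0: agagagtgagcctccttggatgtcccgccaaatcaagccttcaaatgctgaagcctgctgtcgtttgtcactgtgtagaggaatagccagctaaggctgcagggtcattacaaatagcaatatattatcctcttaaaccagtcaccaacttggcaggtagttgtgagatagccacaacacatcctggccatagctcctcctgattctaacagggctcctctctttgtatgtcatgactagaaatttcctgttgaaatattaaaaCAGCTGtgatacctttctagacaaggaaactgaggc
Col11a1, 250 bases before to 50 after the gene start, chr3:114030290-114030589, plus strand, more open at P0: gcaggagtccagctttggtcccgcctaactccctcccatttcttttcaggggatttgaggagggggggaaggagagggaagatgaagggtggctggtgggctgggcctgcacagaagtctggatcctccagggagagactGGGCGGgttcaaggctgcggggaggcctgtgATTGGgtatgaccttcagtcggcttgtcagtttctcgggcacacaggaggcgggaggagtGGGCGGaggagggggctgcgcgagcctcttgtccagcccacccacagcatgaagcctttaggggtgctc
Col6a6, intron, chr9:105737207-105737506, minus strand, more open at P0: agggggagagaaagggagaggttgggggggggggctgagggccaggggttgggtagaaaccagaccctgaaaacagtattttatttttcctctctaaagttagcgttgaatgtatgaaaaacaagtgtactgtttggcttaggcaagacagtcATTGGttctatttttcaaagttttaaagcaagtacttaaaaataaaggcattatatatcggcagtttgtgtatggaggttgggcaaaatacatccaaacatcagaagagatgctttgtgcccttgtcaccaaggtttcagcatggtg
Col23a1, intron, chr11:51470767-51471066, plus strand, more open at P0: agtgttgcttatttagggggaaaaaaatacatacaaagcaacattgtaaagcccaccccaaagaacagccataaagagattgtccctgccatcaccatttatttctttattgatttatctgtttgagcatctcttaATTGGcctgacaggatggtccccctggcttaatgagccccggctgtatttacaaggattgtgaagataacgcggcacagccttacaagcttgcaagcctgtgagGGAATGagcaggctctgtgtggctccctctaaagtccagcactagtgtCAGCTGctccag
Col5a1, intron, chr2:27955112-27955411, plus strand, more open at P0: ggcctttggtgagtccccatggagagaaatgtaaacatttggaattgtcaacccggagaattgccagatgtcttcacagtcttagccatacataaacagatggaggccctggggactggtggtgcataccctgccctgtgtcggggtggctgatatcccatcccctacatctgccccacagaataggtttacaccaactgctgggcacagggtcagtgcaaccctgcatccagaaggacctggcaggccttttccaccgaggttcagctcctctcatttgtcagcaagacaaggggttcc
Col24a1, peak edge to 50 bases after the gene start, chr3:145292368-145292521, plus strand, more open at P0: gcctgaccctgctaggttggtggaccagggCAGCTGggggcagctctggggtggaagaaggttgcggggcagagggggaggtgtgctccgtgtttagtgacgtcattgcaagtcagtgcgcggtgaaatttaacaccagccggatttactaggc

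The Col11a1 start window held 2 GC boxes and 1 CCAAT box. The Col24a1 start window held 1 E-box. In windows of 300 bases about the midpoints of 300693 peaks, 10.5% held AP-1 letters, 18.8% TEAD, 32.0% CCAAT, 8.91% GC box, 17.4% TATA box and 19.8% E-box. Over the 774 collagen peaks the shares were 11.9%, 18.3%, 30.1%, 8.14%, 17.96% and 21.1% in the same order. The start windows of Col11a1 and Col24a1 were cut differently and do not enter these shares. A match is a description of the letters and not a site.

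Levels by cluster are a description, since the clusters were made from the chromatin of the same nuclei, and Col3a1 was among the genes by which the study named the stromal clusters. At P0 a stromal cluster held the highest mean level for 21 of 37 collagen genes, stroma 1 for 8 and stroma 2 for 13. In adult kidney it was again 21, with 8 and 13. NP led 7 genes at P0 and 1 in adult. Within every sample of its age the leading cluster was the highest of all clusters for 28 genes at P0 and for 19 in adult. The values of the leading and the second cluster did not overlap for 29 genes at P0 and for 14 in adult. Neither count was taken over all genes, and both are easier to meet with the fewer P0 samples. Nothing is read from them about the family.

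The fibrillar genes of the interstitium were among those led by stroma. Col1a1, which encodes the α1 chain of type I collagen (chr11:94936224-94953042), stood at 77.7 and 81.4 CPM in stroma 1 of the P0 samples and at 64.2 and 69.9 in stroma 2. The next cluster, DCT, had a mean of 43.1, and the lowest, PCT, had 12.1. Per kb of window, Col1a1 had the highest level of all members in stroma 2, with 3.56 CPM per kb at P0 and 3.33 in adult. Col27a1, a fibrillar collagen of cartilage and other tissues, followed with 1.79 at P0. Col8a2, a network-forming chain of Descemet's membrane, had 1.78. Col9a2, Col16a1 and Col5a3 had 1.54, 1.53 and 1.53.

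Other members were led by epithelium or endothelium. Col13a1, a transmembrane collagen, was highest in Endo, with 265.3 and 255.3 at P0 and with 155.5, 245.2 and 154.2 in the P21 and 2 P56 samples. Col18a1 was highest in PCT at P0 (mean 419.2) and in IC in adult (mean 459.2), where NP was next with 447.0. Col2a1, the fibrillar collagen of cartilage, was highest in NP at P0, at 101.6 and 103.3, with LOH second at a mean of 63.0. Col9a3, a chain of type IX collagen, was highest in PC at P0, at 32.1 and 29.3, and had 5.5, 3.5 and 2.1 there in the adult samples. Col11a2 was highest in the immune cluster at both ages, with 49.8 and 45.5 at P0, although these rest on 19 and 10 calls. When each nucleus was thinned to 1000 open peaks and the share of nuclei with a call was taken instead, 28 genes at P0 and 29 in adult kept their leading cluster. Over transcript-start peaks alone 24 did at P0 and 30 in adult, and those with another leader at P0 included Col11a2, Col13a1 and Col18a1, so that their order across clusters rests on the other peaks of the gene. Without the first P0 sample 30 kept their P0 leader, and without the P21 sample 29 kept their adult leader, Col2a1, Col9a3 and Col18a1 not among them.

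**Figure D1:**
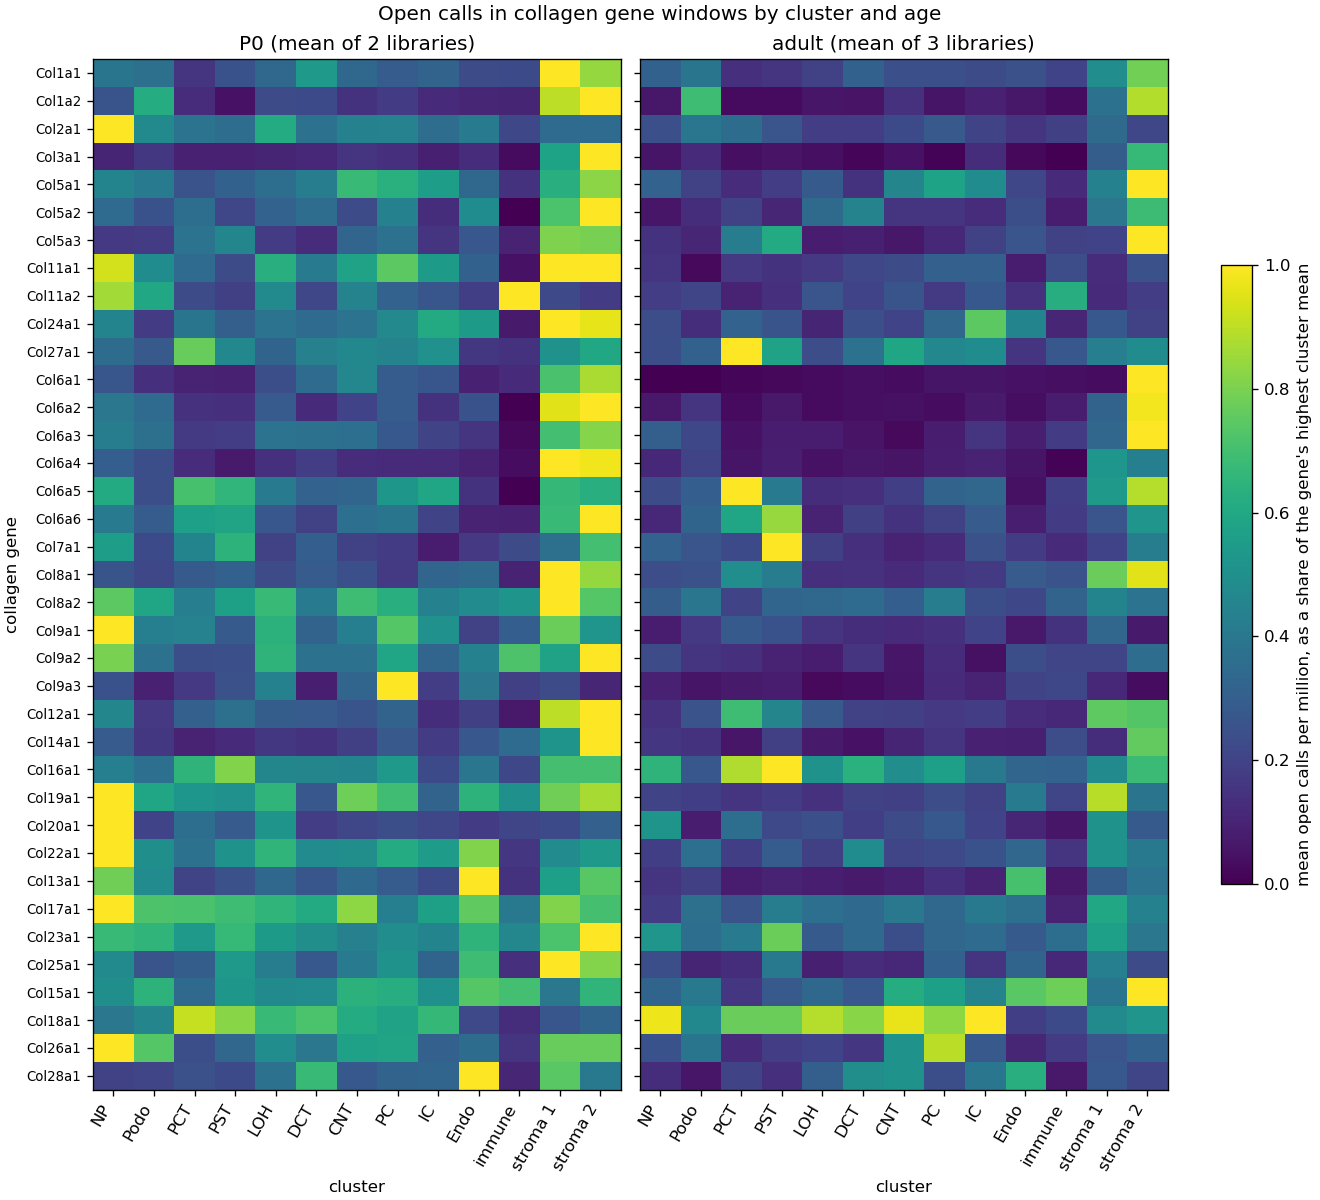
Mean CPM of each collagen gene with a peak (rows) in each of the 13 clusters (columns), at P0 (2 samples, left) and in adult kidney (3 samples, right), as a share of the highest cluster mean of that gene at either age. The 2 stromal columns are the brightest of their panel for 21 of 37 genes at each age, and Col18a1 and Col27a1 are brightest in epithelial columns.

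Over the 65 sums of a cluster in a sample, the pairs whose levels moved most alike were Col3a1 with Col6a4 (Pearson's r = 0.81) and Col3a1 with Col6a2 (r = 0.75). Col1a2 with Col6a4 followed (r = 0.75), then Col13a1 with Col19a1 (r = 0.73), Col19a1 with Col25a1 (r = 0.73) and Col1a1 with Col1a2 (r = 0.72). The 65 sums share libraries and depth, and these values are a description with no test.

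The comparison of age asks which collagen genes differ in accessibility between the developing and the mature kidney within 1 cluster. In stroma 2, 18 collagen genes were more open at P0 and 2 in adult, of 36 that could be tested. Among the larger differences were those of Col24a1, Col11a1 and Col25a1, while Col1a1 and Col1a2 stayed under the threshold. Col15a1 and Col18a1, the members that carry endostatin-like domains, were more open in adult.

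Of the collagen genes tested in stroma 2, 55.6% were called (edgeR's quasi-likelihood test, Benjamini-Hochberg adjusted p under 0.05 over all genes), against 37.8% of all 21515 genes tested. By direction, 21% of all genes were higher at P0 and 16.8% in adult. The median log2 fold change, P0 minus adult, was 0.52 over the tested members and 0.0018 over all genes. These shares are not matched for size, since the members had a median of 14 peaks in 107.0 kb and 1109 calls in stroma 2 while all genes had 3 peaks in 17.0 kb and 498 calls. A gene that passes the count filter through its P0 samples alone is one that had to differ, so that the share is no support for a direction of the family. Of the 18 members called higher at P0, only Col9a1 had no adult sample at the filter's level.

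Among the 11 fibrillar genes, 5 rose at P0 and none fell in stroma 2. Col24a1, a minor fibrillar collagen, had 129.1 and 111.1 CPM in the P0 samples against 29.6, 22.3 and 20.02 in the P21 and 2 P56 samples. Every P0 value lay above every adult value, and the log2 fold change was 2.42 ± 0.17 (SE; edgeR adjusted p = 1.48e-06). Col11a1, which sets fibril width in cartilage, had 27.1 and 27.9 against 9.1, 8.5 and 2.8. Its groups did not overlap either, with a log2 fold change of 2.09 ± 0.29 (SE). Col2a1 (35.0 and 36.4 against 21.6, 21.3 and 22.1), Col3a1 (45.6 and 41.6 against 27.3, 27.7 and 32.5) and Col27a1 (216.5 and 223.6 against 183.3, 178.2 and 172.6) were the other three, with log2 fold changes of 0.77, 0.63 and 0.36.

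The chains of type I collagen stayed under the threshold in stroma 2. Col1a1 had 64.2 and 69.9 at P0 and 67.2, 54.8 and 66.3 in adult, which overlap, and its log2 fold change was 0.17 ± 0.14 (SE; edgeR adjusted p = 0.361). Col1a2 had 44.3 and 45.3 against 48.9, 31.4 and 38.7 and overlapped too. That of Col1a1 changed with the counts used. Thinned to 1000 open peaks a nucleus, with shallower nuclei left out, its log2 fold change was 0.78 and passed the threshold, and 7.18% and 8.59% of the P0 nuclei had a call against 5.18%, 4.62% and 4.82% of the adult nuclei. The same shares in PCT, an epithelium not known for type I collagen, were 0.784% to 1.49%. Col5a1, Col5a2 and Col5a3 had log2 fold changes of -0.22, 0.46 and -0.29 and did not pass.

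All 4 transmembrane collagens were more open at P0. Col25a1, known as the collagen of amyloid plaques and of motor innervation, had 213.1 and 188.1 against 58.1, 79.3 and 34.5 (log2 fold change 1.83 ± 0.22, SE). Col23a1 had 185.5 and 204.9 against 70.6, 97.4 and 64.2. Col13a1 had 189.1 and 196.0 against 104.7, 103.2 and 90.4, which is a fold of 2.01. Col17a1, the hemidesmosome collagen of skin, had lower levels, with 24.2 and 22.3 against 19.4, 14.4 and 9.7. In each of the 4 genes both P0 samples lay above all adult samples, but this count was not taken over all genes and nothing is read from it. All 4 were also called higher at P0 in NP, LOH and CNT, although Col17a1 in NP was tested through its P0 samples alone. In PCT, PC, Endo, Podo and stroma 1 it was 3 of 4, and in the remaining clusters fewer.

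Of the 8 FACIT genes tested, 4 rose at P0. Col9a1 had 18.2 and 15.0 against 1.1, 1.1 and 4.8, with a log2 fold change of 2.84 ± 0.43 (SE). Its adult samples held 1 to 7 calls, all below the filter, so that it was tested through its P0 samples alone and had to differ. Col19a1, its neighbour on chromosome 1, had 58.4 and 55.5 against 37.6, 21.8 and 16.6. Col9a2 had 27.1 and 28.0 against 14.8, 8.0 and 6.9. Col12a1, which binds type I fibrils, changed less, with a log2 fold change of 0.51 ± 0.15 (SE). Col14a1 had 244.3 and 229.7 against 178.7, 224.5 and 137.4 and did not pass (edgeR adjusted p = 0.0561).

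The 6 type VI genes were split. Col6a4 (75.7 and 72.9 against 23.9, 46.3 and 28.3) and Col6a6 (101.8 and 111.8 against 44.4, 77.7 and 45.6) were more open at P0. Col6a1, Col6a2 and Col6a3, which encode the common type VI trimer, had log2 fold changes of -0.16, 0.10 and -0.28 and did not pass. Col26a1 (131.8 and 134.4 against 50.1, 63.3 and 48.3), Col28a1 and Col8a2 also rose, with log2 fold changes of 1.33, 1.11 and 0.96.

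The multiplexins went the other way. Col18a1 had 148.3 and 149.0 CPM at P0 against 240.2, 235.7 and 244.4 in adult (log2 fold change -0.64 ± 0.12, SE; edgeR adjusted p = 0.00113). Col15a1 had 123.5 and 115.2 against 179.8, 197.4 and 168.5 (log2 fold change -0.56 ± 0.13, SE; edgeR adjusted p = 0.00507). Neither gene had overlapping groups. The Col15a1 call was lost with transcript-start peaks alone, and neither gene was among the members called under every alternative. Col18a1 shares 5 of its 40 peaks with Slc19a1, and Col15a1 shares 3 of 39 with Gm12426.

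Without the first or the second P0 sample the count of called members in stroma 2 was 13 in each case, and 1 P0 sample then stood alone and was taken to vary like the adult samples. Called under every alternative that tested them were 12 members: Col8a2, Col9a1, Col9a2, Col11a1, Col13a1, Col19a1, Col23a1, Col24a1, Col25a1, Col26a1, Col6a4 and Col6a6. Of these, Col9a1 was too rare to be tested with thinned counts. Markers of other cell types moved with age in this cluster as well: the summed level of 3 distal tubule markers was 30.4 in both P0 samples and 53.7 to 91.8 in adult, and that of 2 loop markers was 15.5 to 15.9 against 20.2 to 51.2. The 4 podocyte markers summed to 252.4 to 255.9 at P0 and 313.9 to 430.8 in adult, although of 3 tested 1 was called higher at P0 and 1 in adult. The 4 nephron progenitor markers went the way of most called collagens, with 55.98 to 60.7 at P0 against 26.2 to 44.4, and 2 of the 3 tested were called higher at P0. The 7 endothelial markers (287.4 to 293.7 against 222.4 to 269.3) and the 3 intercalated cell markers (50.3 to 50.7 against 27.6 to 43.3) also summed higher at P0. So did the 4 chondrocyte and bone genes (330.7 to 334.3 against 305.1 to 319.7), of which 2 were called higher at P0. The stromal list of 7 genes summed to 661.3 to 675.2 at P0 and 728.3 to 804.7 in adult. The part of these in the collagen differences was not tested.

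**Figure D2:**
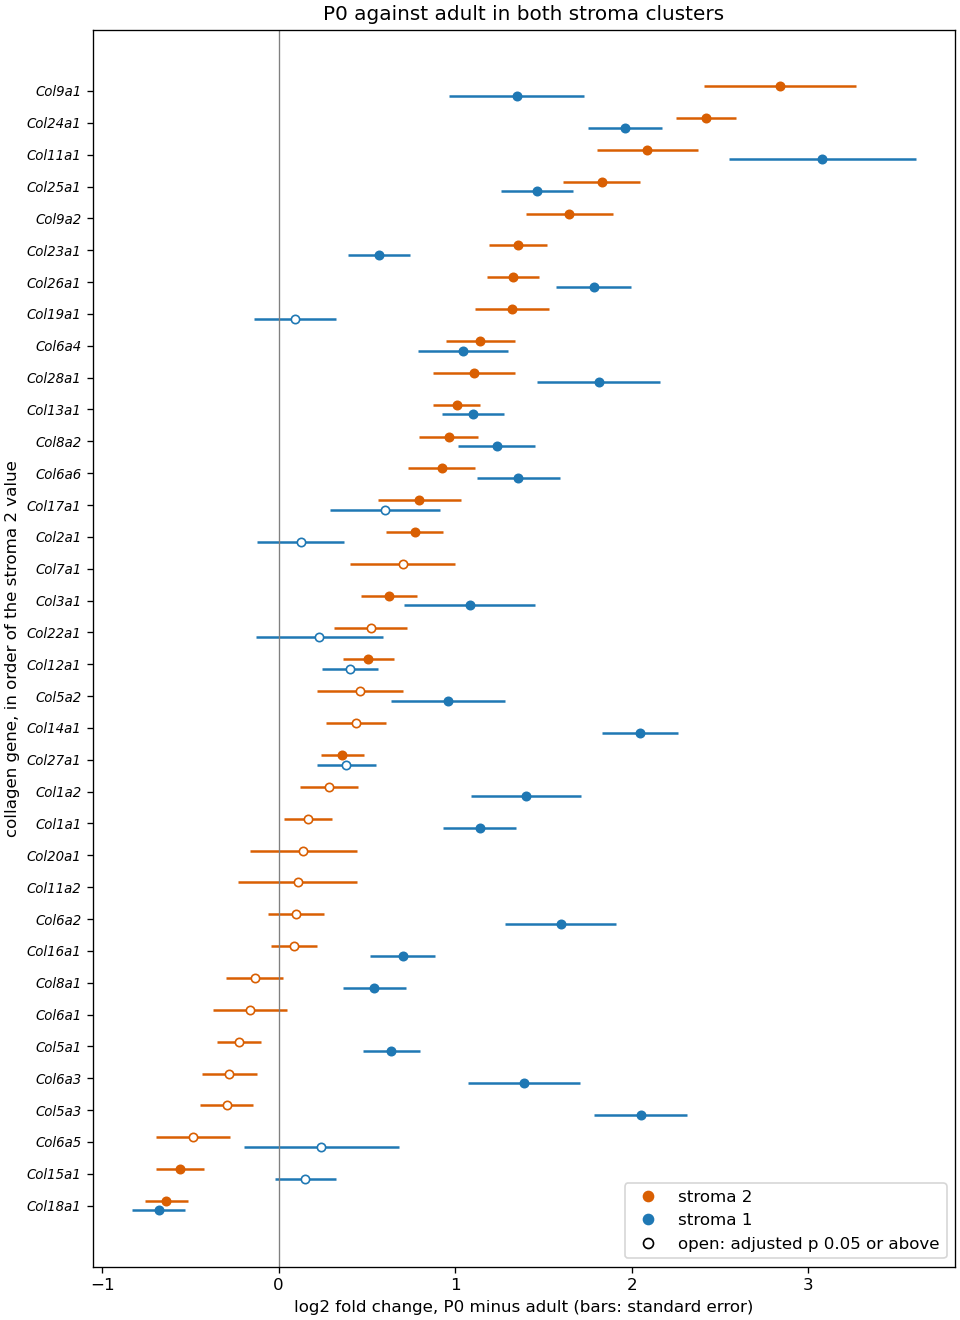
Log2 fold change, P0 minus adult (x axis), with bars of 1 standard error, for each collagen gene tested in stroma 2 (orange) and stroma 1 (blue); open points did not pass the threshold. Col18a1 lies below 0 in both clusters, while Col1a1 and Col5a3 lie above 1 in stroma 1 and at 0.17 and -0.29 in stroma 2.

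In stroma 1 the type I collagen genes did differ with age. Of 31 members tested, 22 were more open at P0 and 1, Col18a1, in adult. Col1a1 had 77.7 and 81.4 against 30.6, 43.7 and 42.9 (log2 fold change 1.14 ± 0.20, SE; edgeR adjusted p = 0.00017). Col1a2 had 40.5 and 40.1 against 6.8, 26.9 and 16.8, and their groups did not overlap. Only 1 adult sample of Col1a2 reached the count filter, so that its adult samples alone would have failed it. Col3a1 had 28.5 and 22.1 against 13.6, 10.1 and 14.9, but no adult sample reached the count filter.

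Larger differences were seen in Col5a3 and Col14a1. Col5a3, a minor type V chain, had 75.8 and 70.2 against 10.2, 20.2 and 24.2, which is a fold of 4.15. Col14a1 had 124.5 and 120.2 against 27.2, 23.5 and 41.0, a fold of 4.13. Col11a1 had 29.6 and 25.5 against 6.8, 0.0 and 3.7, where the adult samples held 0 to 2 calls. It was tested through its P0 samples alone and had to differ, as did Col3a1, Col5a2 and Col9a1. Thus 4 of the 22 are no evidence of a difference. Col6a2, like Col1a2, had 1 adult sample at the filter's level, and its adult samples alone would have failed it. Col6a2 and Col6a3 rose by log2 fold changes of 1.60 and 1.39, while Col6a1 was too rare to be tested there. By family, 8 of 10 fibrillar, 4 of 5 type VI, 3 of 6 FACIT and 3 of 4 transmembrane genes tested rose, against 16.7% of all genes. The fibrillar count includes Col3a1, Col5a2 and Col11a1, and the FACIT count includes Col9a1, all of which had to differ.

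Col18a1 again was higher in adult, with 119.5 and 128.0 against 271.9, 168.1 and 218.0 (log2 fold change -0.68 ± 0.15, SE). Col15a1 was level in stroma 1, at 71.1 and 73.0 against 68.0, 70.6 and 74.5. Of all 16932 genes tested in stroma 1, 31.0% were called, 16.7% higher at P0 and 14.3% in adult, against 74.2% of the members. The median log2 fold change was 1.08 over the tested members and -0.0138 over all genes.

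The adult samples of stroma 1 held only 90 to 107 nuclei, and the counts moved with single samples. Without the first P0, the second P0 or the second P56 sample, 13, 14 and 13 members were called, and thinned to 1000 open peaks 7 were. Marker lists of other cells also moved: 5 proximal tubule markers summed to 51.3 to 68.3 at P0 and 97.5 to 367.0 in adult, 3 distal markers to 26.2 to 31.7 against 107.6 to 147.2, and 2 loop markers to 14.9 to 19.9 against 23.5 to 78.3. Podocyte (217.3 to 242.6 against 313.0 to 359.7), endothelial (282.7 to 301.5 against 346.6 to 490.8) and mural markers (210.0 to 219.9 against 251.6 to 420.2) likewise summed lower at P0. Summed levels were higher at P0 for 4 nephron progenitor markers (61.8 to 64.3 against 20.2 to 27.95), 3 intercalated cell markers (74.6 to 80.3 against 30.3 to 50.98) and 4 chondrocyte and bone genes (335.2 to 369.5 against 152.9 to 168.1). The 7 stromal markers summed to 732.0 to 733.1 at P0 and 465.6 to 534.5 in adult, and 6 of them were called higher at P0. The part of these in the stroma 1 differences was not tested.

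**Figure D3:**
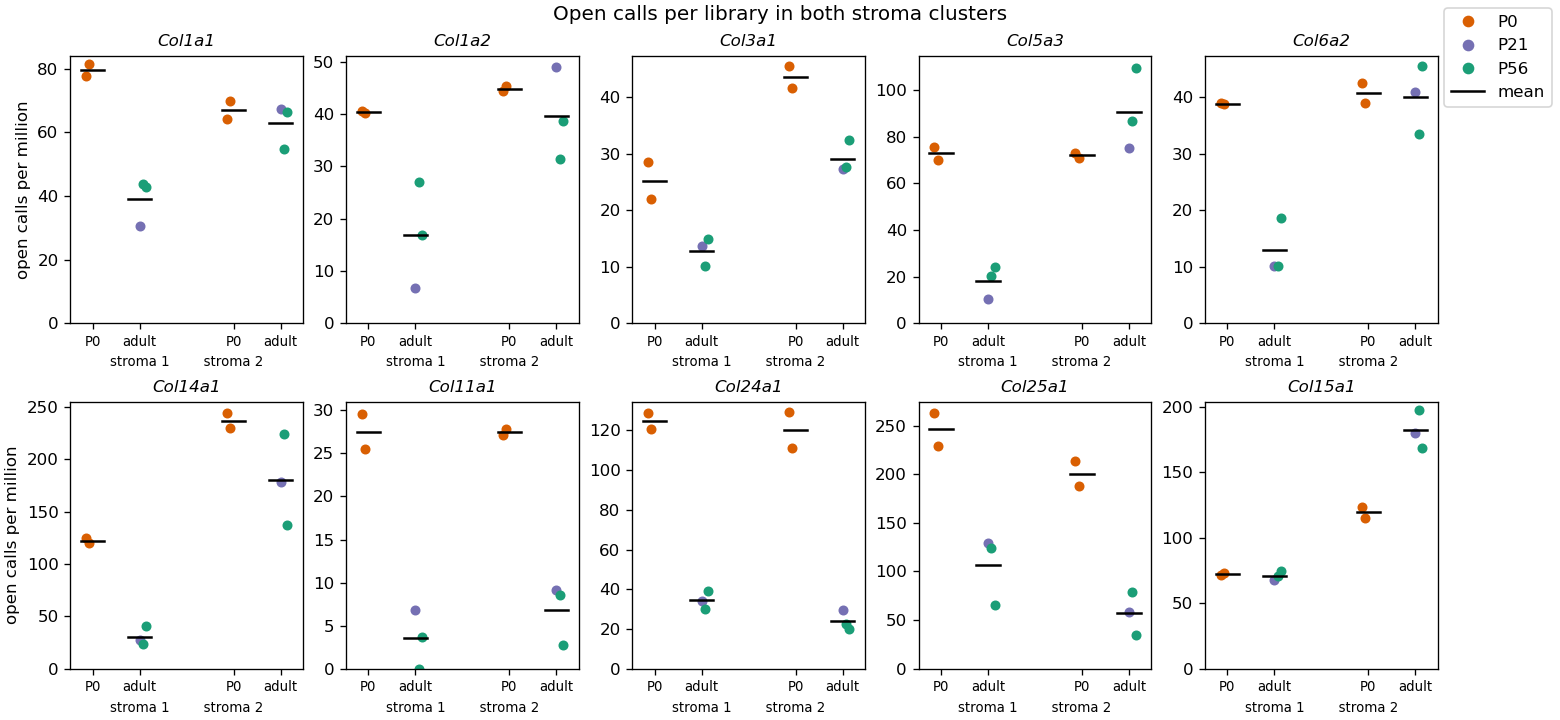
CPM (y axis) in each of the 5 samples for 10 collagen genes in stroma 1 and stroma 2, with points coloured by age and bars at the group means. Both P0 points of Col24a1 lie above all adult points in each cluster, whereas the stroma 2 points of Col1a1 overlap between ages.

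A direct test of whether the age difference was unequal in the stromal clusters (an interaction fit with the sample as a block) called 12 of 37 members, against 9.67% of all genes. In 10 of the 12 the difference was more toward P0 in stroma 1, among them Col5a3, Col14a1, Col6a3, Col6a2, Col1a2 and Col1a1. In Col19a1 and Col23a1 it was more toward P0 in stroma 2. For Col1a1 the stroma 2 effect minus the stroma 1 effect was -0.98 ± 0.23 (SE) on the log2 scale, and for Col5a3 it was -2.37 ± 0.26 (SE). Thinned to 1000 open peaks only 3 members were called, and the value for Col1a1 was -0.39 and no longer past the threshold.

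In Endo, 13 of 32 members tested were more open at P0 and none in adult, against 25.8% of all genes called, 14.7% at P0 and 11.1% in adult. Col26a1 had 53.4 and 68.7 against 19.0, 14.7 and 22.8, and Col14a1 had 64.7 and 64.7 against 22.2, 19.5 and 19.7. Col23a1 and Col25a1 rose there too, with log2 fold changes of 1.19 and 1.11. Col24a1 did not pass in Endo, at 70.3 and 65.8 against 52.4, 68.9 and 48.0, nor did Col1a1, at 19.9 and 16.3 against 17.5, 22.6 and 18.9. Without the first or second P0 sample 6 and 7 members were called, and by DESeq2 and by thinned counts 8 each. The 7 endothelial markers summed to 1455 to 1512 at P0 and 2094 to 2399 in adult, with 6 called higher in adult, and the 4 podocyte markers to 451.7 to 468.0 against 602.95 to 751.5. Higher at P0 were the 4 nephron progenitor markers (37.6 to 38.2 against 15.8 to 26.97), with 2 of 3 tested called, and the 4 chondrocyte and bone genes (142.5 to 155.5 against 81.02 to 93.6), with 3 of 3 called. The 7 stromal markers summed to 322.96 to 333.5 against 254.2 to 298.3. Their part in the collagen differences of Endo was not tested.

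The test of stroma 2 against Endo called 10 of 37 members, against 13.7% of all genes. The age difference was more toward P0 in stroma 2 for Col24a1 (2.31 ± 0.19, SE), Col19a1, Col25a1 and Col13a1. It was more toward P0 in Endo for Col6a2, Col6a3, Col14a1, Col18a1, Col5a1 and Col15a1. DESeq2 called 5 members, thinned counts 6 and the fit without the second P0 sample 6.

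In the remaining clusters the number of members called varied, and so did the direction of single genes. In LOH 31 of 37 members were called, 30 of them at P0, against 53.2% of all genes. In NP 21 of 22 were called against 40.4%, in PC 23 of 34 against 30.8%, in PCT 22 of 37 against 29.0% and in CNT 17 of 25 against 25.9%. These numbers were lower with thinned counts and without some single samples. Thinned to 1000 open peaks, which by its construction lowers the counts, they were 15 in LOH, 3 in NP, 2 in PC, 7 in PCT and 1 in CNT. Without the first or the second P0 sample they were 19 and 19 in LOH, 8 and 8 in PC, 5 and 8 in PCT and 8 and 10 in CNT, and without the second P56 sample 14 in PC. Fewer were called in Podo (8 of 23, against 11.5%), DCT (6 of 17, against 6.47%), PST (4 of 29, against 13.6%) and IC (1 of 20, against 1.43%). Thinned, these were 0, 1, 0 and 0, and without the first or the second P0 sample 1 and 5, 2 and 1, 0 and 0, and 0 and 0. In the immune cluster edgeR called 0 of 6, against 0.0301% of all genes. There 2 members had an unadjusted p under 0.05, and 1 was called with no filter on low counts.

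The markers of these clusters moved with age as well. In NP the 4 nephron progenitor markers summed to 222.2 to 224.7 at P0 and 25.9 to 67.02 in adult, with all 4 called higher at P0. The 2 loop markers there went from 26.9 to 33.9 at P0 to 94.4 to 99.4 in adult, both called, and the 7 stromal markers summed to 420.4 to 448.7 against 170.6 to 238.7. The name NP is kept for the adult nuclei although these defining markers had low levels in them. In PC the 3 principal cell markers summed to 72.8 to 90.4 against 181.8 to 250.5, in CNT the 3 distal markers to 79.7 to 90.7 against 322.7 to 498.4, and in PCT the 5 proximal markers to 523.1 to 541.4 against 643.8 to 847.7. Lists of other cells moved both ways. The 2 loop markers were lower at P0 in PC (13.9 to 23.5 against 33.8 to 51.4) and in CNT (25.1 to 28.97 against 59.8 to 77.4). In PC 3 of 3 tested podocyte, 3 of 6 stromal, 3 of 6 endothelial, 3 of 4 chondrocyte and bone and 2 of 3 progenitor markers were called at P0, and in CNT 4 of 5 endothelial and 3 of 3 chondrocyte and bone markers. In PCT 3 of 7 endothelial, 2 of 4 podocyte and 2 of 4 progenitor markers were called at P0, and in NP 5 of 6 stromal and 3 of 4 mural markers. In Podo the 4 progenitor markers summed to 123.4 to 125.9 at P0 against 37.1 to 77.8, with 2 called, and the 5 proximal markers to 64.3 to 76.03 against 117.97 to 226.8, with 2 called in adult. In DCT the progenitor markers summed to 58.95 to 65.9 against 18.9 to 27.5 and the loop markers to 46.7 to 52.7 against 86.3 to 99.6. In PST the proximal markers summed to 293.8 to 297.9 against 389.2 to 550.2 and the distal markers to 95.7 to 120.7 against 204.97 to 236.2. In IC the loop markers summed to 21.6 to 23.9 against 48.4 to 63.5, with 1 called in adult, and the intercalated markers to 163.8 to 198.5 against 238.1 to 271.7. Several other lists summed higher at P0 there with none called, such as the endothelial (252.6 to 282.7 against 151.7 to 200.7) and podocyte lists (133.1 to 140.3 against 77.4 to 98.7). The part of these in the collagen differences was not tested.

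Col13a1 was called in 11 of the 12 clusters that could test it, always higher at P0. Col25a1 was called in 10 of 12, Col19a1 in 9 of 10 and Col26a1 in 9 of 12, the last higher in adult in PC. All clusters come from the same samples, so that these calls are not independent. Such counts were not taken over all genes. In LOH, Col19a1 had 45.1 and 40.7 against 12.8, 7.7 and 7.3, with no overlap. The Col13a1 difference in IC (log2 fold change 1.26 ± 0.30, SE) was the 1 call there, with 0 to 4 members called in that cluster when 1 sample was left out.

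Col2a1 had 101.6 and 103.3 at P0 in NP and 21.6, 21.3 and 32.6 in adult (log2 fold change 2.13 ± 0.25, SE), but the adult NP sums hold 52 to 90 nuclei and 5 to 12 calls of this gene. Its groups did not overlap. Col9a3 in PC, with 3 calls in each adult sample, was tested through its P0 samples alone and had to differ. The same held for 7 of the 19 members called higher at P0 in NP, 6 of 21 in PC, 3 of 15 in CNT, 3 of 30 in LOH, 2 of 13 in Endo, 2 of 8 in Podo, 1 of 6 in DCT and 1 of 17 in PCT. In these clusters other called members had 1 adult sample at the filter's level, so that their adult samples alone would have failed it. These were Col2a1, Col8a2, Col19a1 and Col24a1 in NP, and Col1a2, Col3a1, Col6a4 and Col9a2 in LOH. In PC it was Col5a2, and in DCT Col13a1 and Col26a1. In LOH, the 4 nephron progenitor markers summed to 112.1 to 128.8 at P0 and 21.9 to 42.6 in adult, and the 2 loop markers to 99.1 to 124.8 against 439.6 to 526.9. The 3 distal markers summed lower at P0 in LOH, at 57.95 to 62.1 against 160.6 to 234.3, although 2 were called higher at P0 and 1 in adult. Several other lists were higher at P0: the stromal list (275.1 to 294.03 against 185.3 to 222.5) with 6 of 7 called at P0, the podocyte list (149.6 to 152.02 against 67.98 to 97.9) with 4 of 4, and the endothelial list (204.2 to 220.6 against 113.9 to 138.8) with 4 of 7. For the mural list (155.7 to 168.9 against 99.8 to 103.6) 4 of 6 were called at P0, and for the chondrocyte and bone list (193.03 to 199.3 against 112.01 to 136.9) 3 of 4. Their part in the collagen differences of LOH was not tested.

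A smaller set was higher in adult epithelium. In PCT these were Col27a1, Col16a1, Col12a1, Col6a5 and Col8a1. They were 5 of 37 tested, near the 13.1% of all genes higher in adult there. Nothing is read from their number. Col12a1 had 39.3 and 37.97 at P0 against 79.8, 98.3 and 83.6 (log2 fold change -1.31 ± 0.15, SE), the reverse of its direction in stroma 2. Col27a1 had 287.3 and 277.1 against 380.7, 328.7 and 392.5, and it too was higher at P0 in stroma 2. Its stroma 2 call was lost under most alternatives, among them thinned counts, transcript-start peaks, peaks of no other gene and the replicate block. That of Col12a1 was also lost with peaks of no other gene. Neither difference between these clusters was itself tested.

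Col18a1 was higher in adult in NP, LOH, CNT and PC as in both stromal clusters, and in NP it had 173.4 and 191.8 against 406.4, 484.4 and 450.3. In PCT it had 413.3 and 425.1 against 353.8, 361.7 and 349.6 and did not pass. Col26a1 was higher in adult in PC (101.9 and 100.9 against 104.9, 180.7 and 180.8), where the P21 value lay close to P0, and higher at P0 in both stromal clusters and Endo. Col16a1 was also higher in adult in NP, and Col28a1 in CNT. Counts in CNT, PC, DCT and Podo fell under DESeq2, to 6, 12, 2 and 1.

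**Figure D4:**
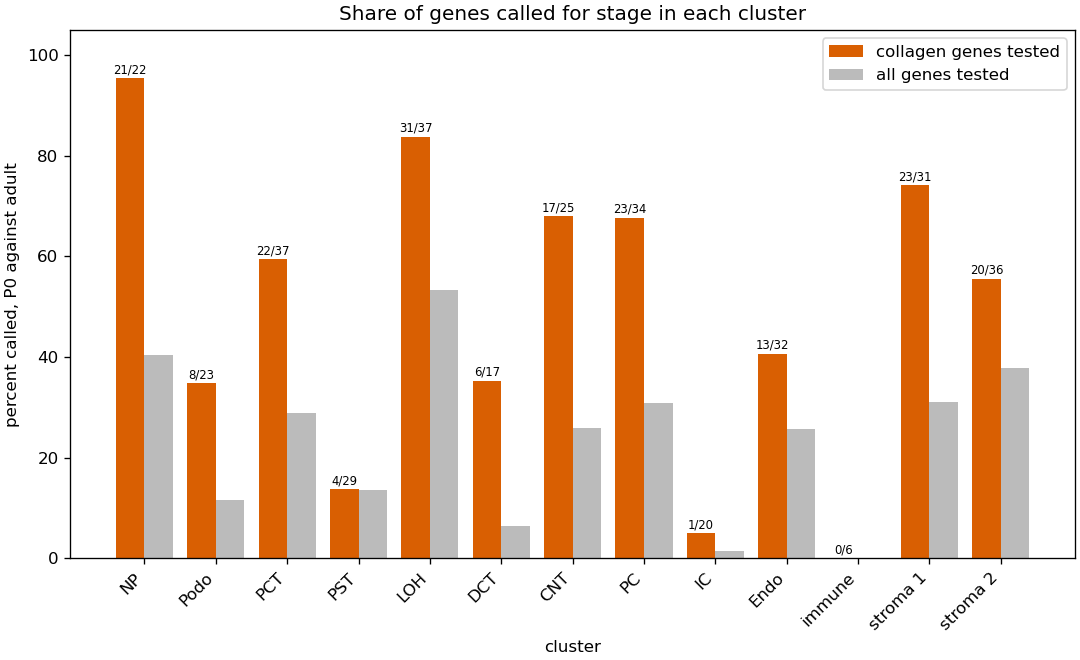
Percent of tested collagen genes (orange, with counts above the bars) and of all tested genes (grey) called between P0 and adult in each cluster. In NP the share is 95.5% against 40.4% of all genes, in PST 13.8% against 13.6%.

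The peaks behind these sums were spread through the genes. Of the 774 peaks, 594 lay in introns, 119 over exons, 48 over a transcript start and 13 upstream, and 37 lay also in the window of another gene. In stroma 2, 185 passed the filter on low counts and 110 were called, 75 higher at P0 and 35 in adult, against 50.2% of all 53951 peaks tested, 26.5% higher at P0 and 23.7% in adult. A peak can pass that filter through its P0 samples alone. Leaving out either P0 sample gave 57 or 64 calls, and leaving out the first P56 sample gave 171, while thinned counts gave 9. With no filter on low counts 209 were called.

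The smallest adjusted p belonged to a Col15a1 intron peak (chr4:47237205-47237745), 29.3 kb from the gene start. It was open in 123 and 104 nuclei at P0, or 12.97 and 11.6 CPM, and in 38, 99 and 61 adult nuclei, or 43.3, 52.7 and 42.1. The adult values were higher without overlap (log2 fold change -1.92 ± 0.19, SE). The Col25a1 intron peak 129.1 kb in went the other way, with 24.7 and 24.7 CPM at P0 and 2.28, 3.72 and 0.69 in adult. No adult sample reached the filter's level there, so that the peak was tested through its P0 samples alone and had to differ.

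The peak over the Col11a1 start (chr3:114030197-114030858) had 23.0 and 23.3 CPM at P0 and 1.14, 4.26 and 1.38 in adult, and was the only peak of that gene to be tested. In the Col6a6 intron peak 90.8 kb in, the values were 22.3 and 22.9 against 2.28, 3.72 and 2.76. In the Col23a1 intron peak 181.0 kb in they were 26.1 and 28.3 against 2.28, 7.98 and 2.07. All P0 values lay above the adult values, which rest on 1 to 15 open nuclei a sample. The Col11a1 and Col6a6 peaks had no adult sample at the filter's level, so that they were tested through P0 alone and had to differ. The Col23a1 peak had 1, and its adult samples alone would have failed the filter.

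Some genes held peaks called in opposite directions, which the sum over the gene does not show. Col5a1 had 12 tested peaks, 1 of them higher at P0 and 3 in adult, while its gene-level log2 fold change was -0.22. Its intron peak 68.8 kb in had 13.5 and 13.4 at P0 against 1.14, 1.06 and 0.00, whereas the peak at chr2:27897095-27897743, chosen after its values were seen, had 6.75 and 7.66 against 23.9, 22.9 and 16.6. The first of these, the only Col5a1 peak called higher at P0, had no adult sample at the filter's level. It was tested through its P0 samples alone and had to differ. Col27a1 had 5 peaks higher at P0 and 6 in adult of 18 tested, and Col12a1 had 6 and 2 of 10. In Col24a1, Col25a1 and Col26a1 the tested peaks were all called higher at P0, but these were 7 of 44, 8 of 78 and 7 of 32 peaks. Among them were the Col25a1 intron peak named above and 1 Col24a1 peak with no adult call, both of which had to differ. How many other peaks of these genes passed the filter through P0 alone was not counted.

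At the start sites, the Col24a1 peak had 19.8 and 19.2 CPM at P0 against 5.69, 6.38 and 3.45 (log2 fold change 1.91 ± 0.30, SE). The peaks over the starts of Col5a3 and Col16a1 had log2 fold changes of -0.07 and 0.29 and did not pass. Col18a1 had 10 of 18 tested peaks higher in adult and none at P0, and Col15a1 had 3 of 10.

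**Figure D5:**
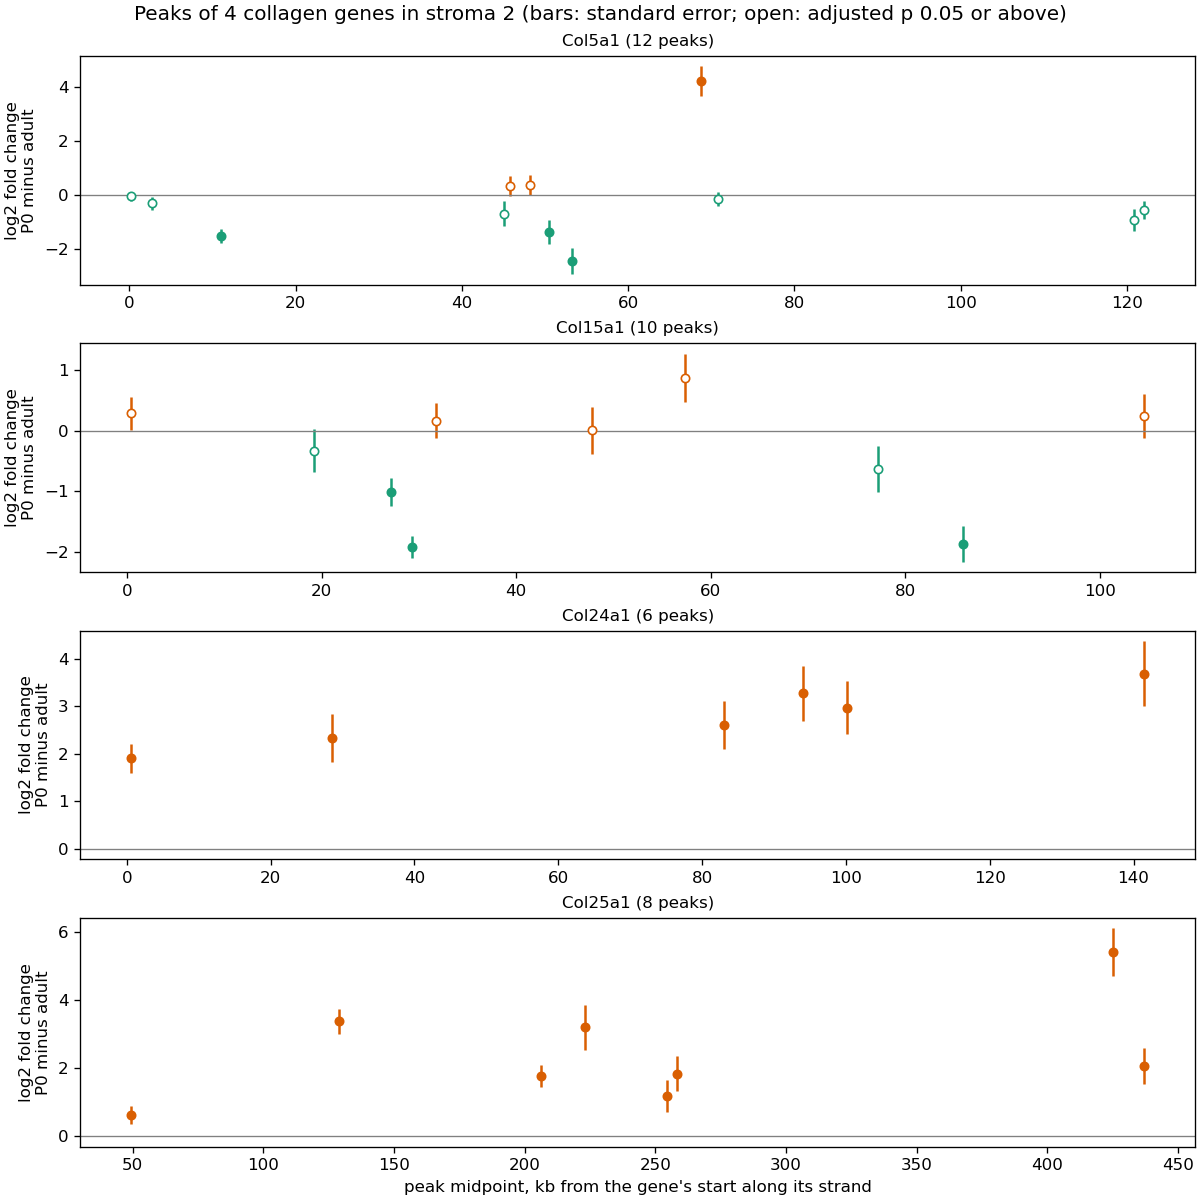
Log2 fold change in stroma 2, P0 minus adult, with bars of 1 standard error, of the tested peaks of Col5a1, Col15a1, Col24a1 and Col25a1 against the distance of the peak from the gene start in kb; filled points passed the threshold, and 1 Col24a1 peak with no adult call is left out. All peaks drawn for Col24a1 and Col25a1 lie above 0, and those of Col5a1 lie on both sides.

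Genes that make, crosslink, bind and cut collagen were grouped in lists by known role. In stroma 2, where 21% of all genes were called higher at P0 and 16.8% in adult, 4 of 12 tested processing and crosslinking genes rose at P0 and 1 in adult, and 3 of 5 collagenases and gelatinases rose at P0. Of 17 folding and modification genes 3 rose at P0 and 5 in adult. Of 8 receptors and of 7 fibril-associated proteoglycans 2 rose each way. With so few genes a list, nothing is read from these shares. The median log2 fold changes of these lists were 0.10, 0.71, -0.10, -0.04 and 0.01 in that order. P4ha3, a subunit of the prolyl hydroxylase that stabilizes the triple helix, was more open at P0 (log2 fold change 2.22 ± 0.26, SE). The other listed subunits of that enzyme, P4ha1, P4ha2 and P4hb, were called higher in adult, with log2 fold changes of -0.55, -0.75 and -0.60. Prelp, a proteoglycan that anchors basement membrane to connective tissue, and Mrc2, the receptor that takes up collagen fragments, were more open in adult (-1.19 ± 0.14 and -0.82 ± 0.14, SE).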

How the data were processed

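As the study's methods state, reads were mapped to mm10 by the authors (Cell Ranger ATAC 1.1.0). They filtered barcodes by fragments, mitochondrial share and promoter ratio, clustered 5 kb bins with SnapATAC and Harmony, and merged peaks that MACS2 had called on each cell type pooled over samples. The counts were deposited by the authors as a binarized matrix of 28316 nuclei by 300755 peaks, not scaled for depth, so that a second fragment in the same peak adds nothing. The other columns used, deposited by the authors, are the sample and cluster name of each nucleus and the peak positions in bp rather than a score. 89197 stored zeros were ignored. Doublet removal is not given in the sources used here.

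Open calls over the peaks of each gene window were summed by cluster and sample. The 13 named clusters hold 27652 nuclei, the other 664 were not used, and the smallest sum holds 39. Tests were run in R 4.3.3 with edgeR 4.0.16 (TMM, filterByExpr at min.count 10 and min.total.count 15, the quasi-likelihood test, and a Benjamini-Hochberg adjusted threshold of 0.05 over all genes), with P21 and P56 as 1 adult group. Interactions were fitted over the sums of both clusters with the sample as a block. DESeq2 1.42.0, other scaling, no filter, other peak sets, thinning to 1000 open peaks (drawn from calls already limited to 1 per peak, with 811 shallower nuclei left out), a replicate block and leaving out each sample were the alternatives. The pipeline was tested on simulated data.

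Members are named by per-sample values where they were among the 10 of smallest adjusted p for age in stroma 2, the 6 highest per kb there at P0, up to 8 with a highest level outside stroma at least 1.5 times the stromal one, or called in at least 3 clusters. Named peaks are those of smallest adjusted p and start peaks of such members, and named partner genes are the 3 of smallest adjusted p. Others were named after their values were seen. The members and lists were chosen with earlier results of these data known. Precision is limited by counting in small adult sums, such as those of Podo, NP, immune and stroma 1.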

Additional observations from a re-analysis of the deposited data

Results flagged for a closer look

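The age difference was unequal between stroma 2 and stroma 1 for 12 collagen genes by the interaction test (edgeR, adjusted over all genes). The values are the log2 fold change, P0 minus adult, in stroma 2 minus that in stroma 1. It was -4.11 for Col6a1, which had 0 or 1 call in each adult sample of stroma 1, so that its size depends on the prior count. It was -2.37 for Col5a3, -1.61 for Col6a3, -1.54 for Col6a2 and -1.51 for Col14a1. It was -1.12 for Col1a2, -0.98 for Col1a1, -0.83 for Col5a1, -0.66 for Col15a1 and -0.58 for Col8a1. Against these, 2 genes went the other way, Col19a1 with 1.33 and Col23a1 with 0.88.

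Between stroma 2 and Endo the age difference was unequal for 10 genes. In stroma 2 minus Endo it was 2.31 for Col24a1, 0.85 for Col19a1, 0.75 for Col25a1 and 0.66 for Col13a1. It was -2.41 for Col6a2, -1.43 for Col6a3, -1.21 for Col14a1, -0.90 for Col18a1, -0.86 for Col5a1 and -0.47 for Col15a1. Both comparisons use the same stroma 2 sums. Col6a2 and Col6a3 rest on few calls in Endo, with mean adult levels of 1.49 and 4.84 CPM. Age groups of 2 and 3 samples are too small for a check of single outlying samples.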

How the results depend on the processing

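In stroma 2 the 20 calls became 18 with DESeq2, 18 with peaks of no other gene, 18 with thinned counts and 18 with transcript-start peaks (17 and 16 of the 20 kept in the last pair), and stayed 20 with size factors and with no filter. Leaving out 1 sample gave 13 to 23. The P0 and P56 samples share replicate numbers, and their deposited names share batch numbers, but the labels do not say that they were paired. The study's methods give each sample a different batch number. The correlation of deviations was 0.179, but with 2 samples at each age it is 1 contrast and cannot decide on pairing. With the replicate block stroma 2 had 20 calls, losing Col27a1 and gaining Col14a1, and IC had 3.

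Thinning to 1000 open peaks gave 3 calls in NP, 0 in Podo, 7 in PCT, 0 in PST, 15 in LOH, 1 in DCT, 1 in CNT, 2 in PC, 0 in IC, 8 in Endo and 7 in stroma 1. It gave 3 interactions with stroma 1, 6 with Endo and 9 called peaks. By its construction thinning lowers the counts. Transcript-start peaks gave 8 calls in NP, 2 in Podo, 1 in PST, 1 in DCT, 7 in CNT, 0 in IC and 15 in stroma 1. DESeq2 gave 1 in Podo, 2 in DCT, 6 in CNT, 12 in PC and 8 in Endo, and 5 interactions with Endo. With no filter there were 7 calls in PST, 3 in IC and 1 in immune, and 209 peaks. In IC peaks of no other gene gave 2 calls and a minimum of 50 nuclei gave 0. The cause was not tested for any of these.

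Leaving out 1 sample gave 18 to 27 calls in NP, 1 to 6 in Podo, 5 to 27 in PCT, 0 to 6 in PST, 19 to 31 in LOH, 1 to 9 in DCT, 8 to 18 in CNT, 8 to 23 in PC, 0 to 4 in IC, 6 to 17 in Endo and 13 to 24 in stroma 1. It gave 8 to 10 interactions with stroma 1, 6 to 12 with Endo and 57 to 171 peaks. The lowest counts in PCT, LOH, CNT, PC and Endo came without a P0 sample.

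Values of single members under the alternatives were compared in stroma 2, stroma 1, Endo and both interaction tests. Of these, 1658 kept their side of the threshold, 156 no longer passed it, 29 newly passed it and 2 turned. A change of direction was counted only where the main or the alternative fit passed the threshold. The 1658 can thus hold others that changed direction. Those that turned, both in stroma 1, were Col16a1 with peaks of no other gene (-0.0853) and Col18a1 with transcript-start peaks (0.39). Depth is limited in the adult sums of Podo, NP, immune and stroma 1, which held 130235 to 536670 open calls each.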

Other observations

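Some members had their highest level outside stroma. Col22a1, a fibril-associated collagen of tissue junctions, had 45.1 and 40.3 CPM in NP at P0 and 12.97, 0.0 and 10.9 in adult, where it rests on 0 to 4 calls. Col20a1, another fibril-associated collagen, had 26.7 and 29.5 in NP at P0 and 25.9, 12.2 and 5.4 in adult. Col28a1 was highest in Endo, at 70.1 and 65.5 at P0 against 47.6, 52.1 and 27.5, with groups that did not overlap. In CNT it had 18.2 and 18.9 at P0 against 16.3, 51.3 and 36.3, where the P21 value lay below both P0 values. Col7a1, the anchoring fibril collagen of skin, had 13.3 and 14.1 in PST at P0 and 11.2, 18.6 and 33.8 in adult, where it was highest, and it was called in none of the 4 clusters that tested it.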
